A study of Mus musculus with 9 samples.

Results

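The genes described are 39 genes of glycolysis and of the response to low oxygen, chosen by name from these pathways, of 19305 genes listed in either of the deposited tables. Of these, 19 carry glucose to lactate (a glucose transporter, the glycolytic enzymes, their regulators and the lactate transporters) and 20 belong to the hypoxia response. The 39 genes were chosen with earlier results of these data known. All 39 were listed once in each table and passed the filter on low values, a mean of at least 10. They were measured in mouse LLC1 cells, a Lewis lung carcinoma line, after 24 h of direct contact with T cells generated outside the animal, at 1 T cell per cancer cell. The groups were LLC1 with Th9 cells, LLC1 with Th17 cells, and LLC1 with Th0 cells as their control, with 3 libraries each. CD4-positive cells were sorted away before total RNA was isolated, and no LLC1 cells kept without T cells are among the samples, so every group shares T cell contact. The labels name no animal or strain for the T cells. They do not tell if a group's libraries came from separate cultures, and p-values cover no more than the spread among these samples.

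Glycolysis breaks glucose down to pyruvate, and lactate dehydrogenase turns pyruvate into lactate, which monocarboxylate transporters carry out of the cell. In low oxygen the transcription factor HIF-1, whose regulated subunit is HIF-1 alpha, escapes hydroxylation by the prolyl hydroxylases and degradation through VHL, and then binds a short DNA motif, the hypoxia response element, near its target genes. Its targets include most glycolytic enzymes, the angiogenic factor VEGF-A, mitophagy receptors and collagen-modifying enzymes. Activated T cells also run strong glycolysis and express many of the same genes.

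Values are read counts per gene that the authors normalized by library and rounded to whole numbers, called normalized counts here. The table with Th9 (18816 genes) and the table with Th17 (18511 genes) were normalized separately and share the Th0 libraries, so each comparison stays within its table and Th17 was not tested against Th9. Approximate depth was 12718836 to 17505192 assigned reads per library. Fold changes are differences of mean log2(normalized count + 1), and a gene is called at an adjusted p under 0.05 over all genes tested with limma-trend. Th0 replicate 1 stood apart: mt-Rnr1, mt-Rnr2 and Gm26917 took 31.1% of its normalized counts, against 16.6% and 14.9% in the other Th0 libraries. It was the lowest Th0 library for 27 of the 39 genes (69.2%), against 43.8% of all genes tested in the table with Th9. The carcinoma genes Krt8, Krt18, Vim and Cdh2 were present, whereas Cdh1 and Epcam were not listed.

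T cell transcripts differed between the groups compared. The 24 T cell markers summed to 2137 to 3011 normalized counts in the Th9 libraries, against 268 to 445 in the Th0 libraries, and 21 of the 23 tested were called higher. Cd3g, part of the T cell receptor complex, had 352, 346 and 254 normalized counts in the Th9 libraries, against 8, 5 and 2 in the Th0 libraries. Cd3e, another part of it, had 86, 61 and 54 in the Th9 libraries, against 5, 3 and 2 in the Th0 libraries. Ptprc, the white cell gene CD45, rose as well (log2 fold change 4.45), while Cd4 was not called (0.82, adjusted p = 0.114). In the table with Th17 the 18 listed markers summed to 240 to 277 in the Th17 libraries, against 273 to 444 in the Th0 libraries, and none of the 9 tested was called by limma-trend (1 lower and 0 higher at an unadjusted p under 0.05). There Cd3g was at 0, 1 and 0, Ptprc at 8, 7 and 1, and Cd4 at 10, 9 and 18 in the Th17 libraries, against 52, 25 and 7 for Ptprc and 11, 8 and 19 for Cd4 in the Th0 libraries, while Cd3e was not listed. In bulk RNA, fewer cells of a type and less RNA per cell cannot be told apart, and the part of T cell RNA in the Th9 values below was not tested. Markers of other white cells (8 listed, from B, NK, myeloid or CD8 T cells) had sums of 99 to 121 in the Th9 libraries, against 73 to 161 in the Th0 libraries. Of the 4 tested, Cd14, a monocyte gene, was called higher (log2 fold change 0.86) and Lyz2, a myeloid lysozyme gene, lower, at 0, 2 and 1 in the Th9 libraries, against 33, 15 and 11 in the Th0 libraries. Of the carcinoma genes Krt8, a keratin, was lower with Th9, at 956, 1050 and 1255 in the Th9 libraries, against 1688, 2470 and 2282 in the Th0 libraries.

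The comparison of Th9 with Th0 addresses which RNA levels differ after Th9 contact in the sorted cells. Several members rose, among both the glycolysis and the hypoxia response genes. The oxidase gene Ero1l rose 2.39-fold, Vegfa 1.67-fold, Hk2 1.64-fold and the stress gene Ddit4 1.61-fold, whereas Bnip3 fell to 0.65 of its Th0 level. Hif1a itself rose 1.46-fold, while the glucose transporter Slc2a1, Ldha, Aldoa and Pkm were not called. Of the 39 members 11 were called higher (28.2%) and 2 lower (5.13%), where 13.4% of all 14475 genes tested were called higher and 11.9% lower (25.2% in all). With a minimum mean of 50, 15.7% of genes tested were called higher and 14.7% lower, with 11 members higher and 2 lower. Among all genes tested, 1937 were called higher and 1716 lower, or 2252 higher and 794 lower with the same total per library. These counts moved with single libraries: 1015 and 838 were called higher and lower without Th9 replicate 1, 1131 and 947 without Th9 replicate 2, 2594 and 2742 without Th0 replicate 1, and 1465 and 1068 without Th0 replicate 3. Of the 19 glycolysis genes 4 were called higher and 1 lower, with a median log2 fold change of 0.16. Of the 20 hypoxia response genes 7 were called higher and 1 lower, with a median of 0.21, against -0.011 over all genes tested. The Th9 libraries lay wholly above the Th0 libraries for 15 members and wholly below for 4, where 21.4% and 19.2% of all genes tested did so. Summed over the 20 hypoxia response genes, each library held 23072 to 23773 normalized counts with Th9, against 16400 to 19784 with Th0. Over the 19 glycolysis genes the sums were 57327 to 58745 with Th9, against 44772 to 55336 with Th0. Wholly above the Th0 libraries lay 8 glycolysis genes and 7 hypoxia response genes. Log2 fold changes were above 0 for 15 of the 19 glycolysis genes and 11 of the 20 hypoxia response genes. Which set rose more thus depends on the measure, and the difference between the sets of 19 and 20 genes was not tested.

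Ero1l, Vegfa, Hk2 and Ddit4 changed most among the called genes with a match to the core letters of the hypoxia response element. Promoter windows of these genes are shown. They are RefSeq windows of 300 bases in GRCm38.p6, from 250 bases before to 50 after a gene start, all on the minus strand and written 5′ to 3′ along the gene. Capitals mark ACGTG or GCGTG on either strand (also read as CACGT or CACGC).
Ero1l, chr14:45318523-45318822: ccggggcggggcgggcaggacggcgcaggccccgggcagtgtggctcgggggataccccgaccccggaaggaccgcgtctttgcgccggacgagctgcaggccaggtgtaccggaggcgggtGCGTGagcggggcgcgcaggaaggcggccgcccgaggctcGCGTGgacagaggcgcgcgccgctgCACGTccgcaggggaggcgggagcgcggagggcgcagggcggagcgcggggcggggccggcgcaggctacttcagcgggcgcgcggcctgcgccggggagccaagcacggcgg
Vegfa, chr17:46025114-46025413: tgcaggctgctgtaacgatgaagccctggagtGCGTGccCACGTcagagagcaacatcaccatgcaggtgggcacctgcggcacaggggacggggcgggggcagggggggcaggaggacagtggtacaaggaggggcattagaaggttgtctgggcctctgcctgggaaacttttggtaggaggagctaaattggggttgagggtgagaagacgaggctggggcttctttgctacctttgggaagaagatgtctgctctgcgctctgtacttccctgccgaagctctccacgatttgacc
Hk2, chr6:82774405-82774704: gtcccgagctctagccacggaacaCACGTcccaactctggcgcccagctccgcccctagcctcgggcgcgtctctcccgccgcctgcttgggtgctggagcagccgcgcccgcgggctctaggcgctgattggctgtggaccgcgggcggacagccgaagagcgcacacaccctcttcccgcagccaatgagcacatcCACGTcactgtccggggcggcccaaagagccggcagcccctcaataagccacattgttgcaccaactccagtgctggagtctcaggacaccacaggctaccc
Ddit4, chr10:59951721-59952020: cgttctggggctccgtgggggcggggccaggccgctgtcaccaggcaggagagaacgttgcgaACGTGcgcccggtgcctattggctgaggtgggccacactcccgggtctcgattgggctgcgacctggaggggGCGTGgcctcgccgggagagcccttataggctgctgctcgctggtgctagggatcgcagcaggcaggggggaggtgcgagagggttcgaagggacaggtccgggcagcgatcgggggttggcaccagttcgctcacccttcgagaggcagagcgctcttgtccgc
The Vegfa window belongs to a start inside the gene, and the window of its outer start held no match. Its marked letters thus lie within the transcribed span of the longer gene. They show no element at the outer Vegfa start. ACGTG or GCGTG occurred in a window of 33 of the 37 members with a promoter in the table (89.2%), against 64.6% of the 11369 genes of the same table that the deposited files list, counted per gene over all its windows. Counted per window, 41 of 54 member windows held a match (75.9%), against 59.1% of the 14429 windows of the listed genes. Of the glycolysis genes 17 of 19 held a match and of the hypoxia response genes 16 of 18, while Tpi1, Gpi1, Gys1 and Gbe1 held none. CACGTG, which contains ACGTG and is also the E-box read by Myc, occurred in 6 of the 37 members (16.2%), against 1250 of the 11369 genes. Bnip3, which was lower with Th9, held 5 matches. These are matches of letters only, the members were chosen from pathways that include many known HIF targets, and no binding was measured.

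Glucose enters through the transporter encoded by Slc2a1 (GLUT1), and hexokinases then phosphorylate it. Slc2a1 had 897, 815 and 941 normalized counts in the Th9 libraries, against 729, 777 and 813 in the Th0 libraries. All Th9 libraries lay above all Th0 libraries, by 2 normalized counts at the nearest, and the difference was not called (log2 fold change 0.19, SE 0.088, adjusted p = 0.13). Hk2, the inducible hexokinase of many tumours, had 3211, 3318 and 3325 in the Th9 libraries, against 1852, 2119 and 2052 in the Th0 libraries. The groups lay far apart (log2 fold change 0.71, SE 0.083, adjusted p = 7.7e-05). Hk2 (ENSMUSG00000000628) lies on chromosome 6, positions 82725025 to 82774454, minus strand, in GRCm38. Hk1, the hexokinase of most tissues, overlapped between groups (0.10, adjusted p = 0.55). Per kilobase of annotated exon, Hk2 made up 75.8% to 78.6% of the level of both hexokinase genes in the Th9 libraries, against 67.2% to 71.2% in the Th0 libraries. Exon length here is the union of all annotated exons, 8.532 kb for Hk1 and 5.969 kb for Hk2. It can exceed the length of a transcript, so the size of a share and the order of genes depend on it.

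**Figure D1:**
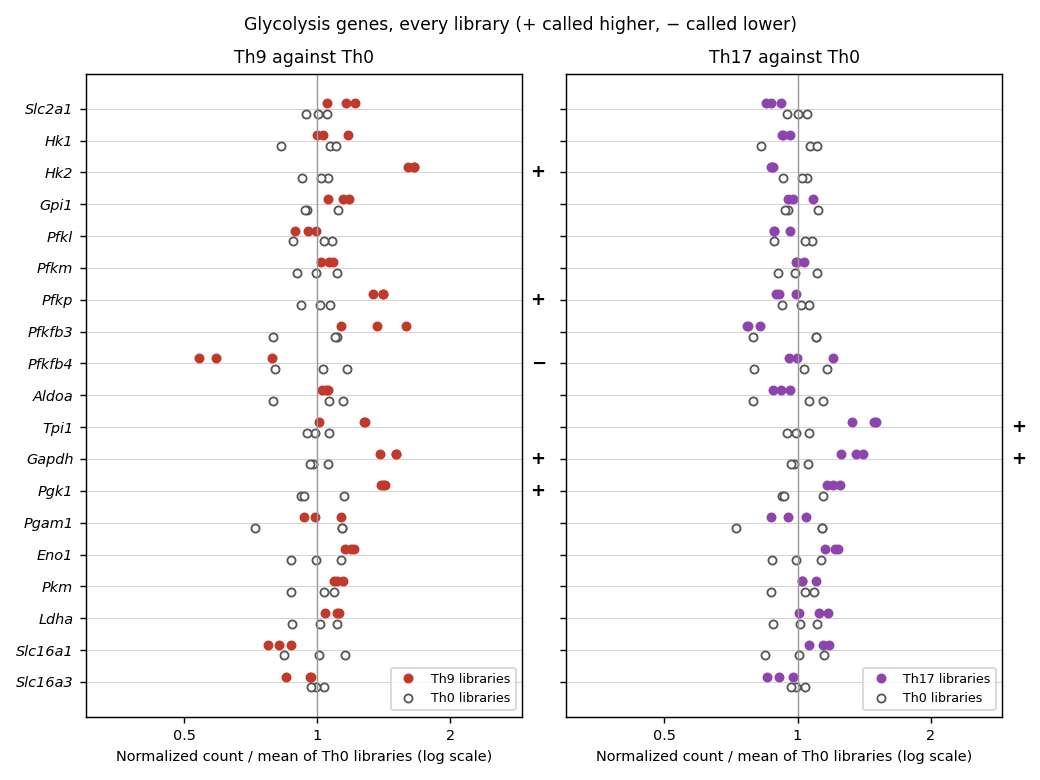
Normalized count of each glycolysis gene in every library, divided by the mean of the 3 Th0 libraries of its table (log axis), for Th9 (left panel) and Th17 (right panel). Filled points are Th9 or Th17 libraries and open points Th0 libraries, and + and − mark genes called higher and lower; Hk2 reaches 1.66 in the Th9 libraries and 0.881 in the Th17 libraries, and lies at 0.922 to 1.055 in the Th0 libraries of the left panel.

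The phosphofructokinases commit sugar to glycolysis, and the bifunctional PFKFB enzymes set the level of their activator, fructose 2,6-bisphosphate. Pfkp, the platelet-type phosphofructokinase, had 1835, 1750 and 1844 normalized counts in the Th9 libraries, against 1200, 1394 and 1326 in the Th0 libraries (log2 fold change 0.47, SE 0.083, adjusted p = 0.0015). Its groups did not overlap, while those of Pfkl (-0.08) and Pfkm (0.08) did. Pfkp made up 21.5% to 23.5% of the level of the 3 phosphofructokinase genes per kilobase in the Th9 libraries, against 16.4% to 17.5% in the Th0 libraries. The exon union is 13.401 kb for Pfkp, 6.675 kb for Pfkl and 3.34 kb for Pfkm, and the order of these genes depends on it. By this length Pfkl had the largest share, at 46.6% to 48.7% in the Th9 libraries, against 52.4% to 54.7% in the Th0 libraries. Pfkfb4 had 63, 47 and 43 in the Th9 libraries, against 82, 64 and 93 in the Th0 libraries. It was called lower (-0.64, SE 0.21, adjusted p = 0.042), but its groups lie only 1 normalized count apart, and the call was lost when Th0 replicate 3 or Th9 replicate 2 or 3 was left out (adjusted p up to 0.159). Pfkfb3, its relative with strong kinase activity, had 292, 208 and 251 in the Th9 libraries, against 146, 204 and 202 in the Th0 libraries, and was not called (0.44, adjusted p = 0.058). Gpi1 (0.18, adjusted p = 0.2) and Aldoa (0.08, adjusted p = 0.68), the isomerase and aldolase steps, overlapped between groups.

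In the lower part of the pathway Gapdh and Pgk1, which act in sequence around the first step that yields ATP, rose together in the Th9 libraries. Gapdh had 4042, 4044 and 3727 normalized counts in the Th9 libraries, against 2623, 2836 and 2588 in the Th0 libraries (log2 fold change 0.55, SE 0.083, adjusted p = 4.8e-04). Pgk1 had 973, 952 and 963 in the Th9 libraries, against 629, 787 and 639 in the Th0 libraries (0.50, SE 0.097, adjusted p = 0.0029). Both genes, like Aldoa, Pgam1, Ldha and Bnip3l, have annotated pseudogenes that can share reads. The copy Gapdh-ps14 had at most 5 normalized counts in any library of the table with Th9. Gapdh (ENSMUSG00000057666) lies on chromosome 6, positions 125161715 to 125166467, minus strand. Eno1, which makes phosphoenolpyruvate, had 4213, 4157 and 4024 in the Th9 libraries, against 3042, 3952 and 3459 in the Th0 libraries, and was not called (0.25, adjusted p = 0.084). Its close copy Eno1b had at most 9 in any library.

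The remaining enzymes of the lower part were not called. Tpi1, the triose phosphate isomerase, had 3411, 3386 and 2678 normalized counts in the Th9 libraries, against 2628, 2832 and 2520 in the Th0 libraries (log2 fold change 0.24, adjusted p = 0.11). Th9 replicate 3 lay among the Th0 libraries, and Tpi1 was called higher without it (0.36) or without Th0 replicate 1 (0.23). Pkm, the pyruvate kinase gene, was the highest member per kilobase of exon, at 3493 ± 84.8 normalized counts per kilobase in the Th9 libraries and 3133 ± 362 in the Th0 libraries (SD, n = 3 each). Its difference was at 0.16 (adjusted p = 0.36) and Pgam1, the phosphoglycerate mutase, at 0.05 (adjusted p = 0.84). Ldha, which makes lactate, had 6164, 6243 and 5792 in the Th9 libraries, against 4886, 6190 and 5644 in the Th0 libraries. Its groups overlapped (0.13, SE 0.10, adjusted p = 0.4). The lactate transporter genes Slc16a1 (MCT1; -0.27, adjusted p = 0.088) and Slc16a3 (MCT4; -0.11, adjusted p = 0.58) were not called, and Slc16a1 was called lower without Th0 replicate 1, with a log2 fold change of -0.39.

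Among Hif1a and the genes of its prolyl hydroxylases, Hif1a and Egln3 rose with Th9. Hif1a had 5707, 5686 and 6072 normalized counts in the Th9 libraries, against 3455, 4687 and 3941 in the Th0 libraries (log2 fold change 0.54, SE 0.11, adjusted p = 0.0037). The lowest Th9 library lay above the highest Th0 library. Hif1a (ENSMUSG00000021109) lies on chromosome 12, positions 73901375 to 73947530, plus strand. Egln3, the prolyl hydroxylase that HIF itself induces most, had 1831, 1825 and 1456 in the Th9 libraries, against 1274, 1406 and 1174 in the Th0 libraries (0.40, SE 0.11, adjusted p = 0.016). Its call was lost when Th0 replicate 3 or Th9 replicate 1 or 2 was left out (adjusted p up to 0.0944). Egln1, the main HIF prolyl hydroxylase in normal oxygen, overlapped between groups (-0.08, adjusted p = 0.56). Pdk1, a kinase that inhibits pyruvate dehydrogenase, had 819, 753 and 837 in the Th9 libraries, against 543, 687 and 613 in the Th0 libraries (0.39, SE 0.099, adjusted p = 0.013). It lost its call without Th9 replicate 1 or 3 (adjusted p up to 0.0693). Pdk3, another such kinase, was at 0.18 (adjusted p = 0.4).

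Among the HIF targets called higher with Th9 were Ero1l, Vegfa, Ddit4 and Ndrg1. Ero1l, the oxidase that passes electrons from protein disulfide isomerase to oxygen in the endoplasmic reticulum, had 1766, 1718 and 1975 normalized counts in the Th9 libraries, against 698, 891 and 707 in the Th0 libraries. The gene (ENSMUSG00000021831) lies on chromosome 14, positions 45283092 to 45318572, minus strand, and its promoter is printed above. Every Th9 library held at least 2.24 times the Th0 mean, and the fold change (log2 1.26, SE 0.10, adjusted p = 6.8e-06) was larger than that of 97.3% of all genes tested. Vegfa, the main angiogenic growth factor, had 3222, 3112 and 2995 in the Th9 libraries, against 1976, 1792 and 1830 in the Th0 libraries (0.74, SE 0.081, adjusted p = 5.0e-05). Ddit4 (REDD1), an inhibitor of mTORC1, had 566, 617 and 574 in the Th9 libraries, against 301, 373 and 429 in the Th0 libraries (0.68, SE 0.12, adjusted p = 0.0015). Vegfa (ENSMUSG00000023951) lies on chromosome 17, positions 46016993 to 46032377, minus strand. Neither Vegfa nor Ddit4 overlapped between groups. Ndrg1, a stress-induced gene linked to differentiation, had 817, 723 and 745 in the Th9 libraries, against 446, 528 and 512 in the Th0 libraries (0.62, SE 0.095, adjusted p = 5.4e-04). Ero1l and Ddit4 also belong to the response to endoplasmic reticulum or amino acid stress, and Vegfa and Hk2 are known targets of other factors too. Which factors acted on the members was not tested.

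Other hypoxia genes were lower or did not move with these. Bnip3, a mitophagy receptor and HIF target, had 154, 155 and 172 normalized counts in the Th9 libraries, against 220, 279 and 245 in the Th0 libraries. It (ENSMUSG00000078566) lies on chromosome 7, positions 138890836 to 138909519, minus strand. The groups did not overlap, and the decrease was called (log2 fold change -0.62, SE 0.12, adjusted p = 0.0032). Its relative Bnip3l (-0.12, adjusted p = 0.54) overlapped between groups, and Higd1a, a mitochondrial protein gene, was at -0.49 (adjusted p = 0.078). Adm, the vasodilator adrenomedullin, lay below the Th0 libraries in all Th9 libraries, at 169, 191 and 168 against 197, 285 and 213, and was not called (-0.38, adjusted p = 0.073). Of the collagen prolyl hydroxylase genes P4ha1 was at 0.28 (adjusted p = 0.054) and P4ha2 at -0.27 (adjusted p = 0.16). Mxi1, a Myc antagonist, was at 0.26 and the histone demethylase gene Kdm3a at -0.16, and the glycogen genes Gys1 and Gbe1 were at 0.24 and -0.16. Ankrd37, with 11 to 29 normalized counts over the 6 libraries, was too low to resolve a change of its size (-0.32, SE 0.37).

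**Figure D2:**
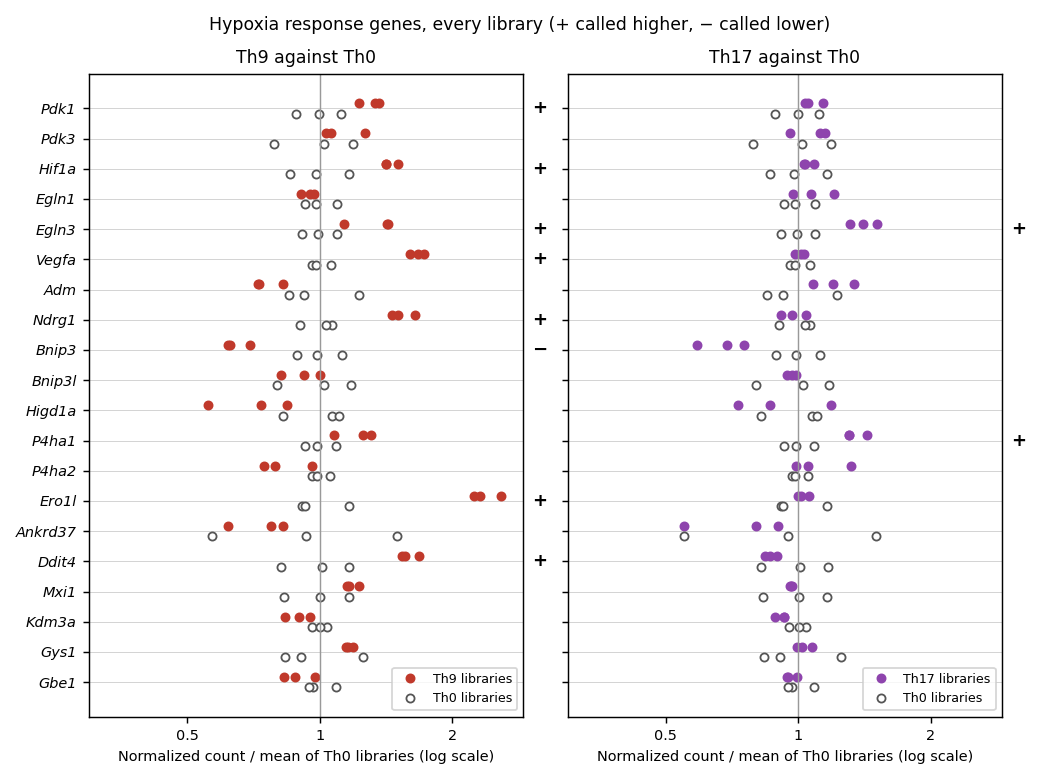
Normalized count of each hypoxia response gene in every library, divided by the mean of the 3 Th0 libraries of its table (log axis), for Th9 (left panel) and Th17 (right panel). Filled points are Th9 or Th17 libraries and open points Th0 libraries, and + and − mark genes called higher and lower; Ero1l lies at 2.24 to 2.58 in the Th9 libraries and at 0.999 to 1.06 in the Th17 libraries, and Bnip3 below every Th0 library in both.

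Genes of neighbouring pathways are read against the 13.4% called higher and 11.9% called lower among all genes tested with Th9. Of 10 tested HIF pathway components, Siah2, a ubiquitin ligase that acts on the prolyl hydroxylases, rose (log2 fold change 0.83, adjusted p = 9.9e-04) and Egln2, the third prolyl hydroxylase gene, fell (-0.46, adjusted p = 0.0065). Arnt (0.06), Vhl (-0.06) and Hif1an (-0.11) were not called, and the list's median was -0.04. Of 24 other HIF targets tested 9 were higher (37.5%) and 3 lower (12.5%), with a median of 0.14. Stc2, stanniocalcin 2, had 90, 99 and 96 normalized counts in the Th9 libraries, against 30, 18 and 36 in the Th0 libraries (1.78, adjusted p = 2.5e-04). Stc1, stanniocalcin 1, had 92, 101 and 97 in the Th9 libraries, against 385, 444 and 373 in the Th0 libraries (-2.04, adjusted p = 3.9e-07), so these related HIF targets moved in opposite directions. The phosphoglucomutase gene Pgm1 rose (0.60, adjusted p = 0.0015), and the carbonic anhydrase gene Car9, a HIF-1 target, was not called (-0.55, adjusted p = 0.051). The glucose transporter gene Slc2a3 (GLUT3), which T cells use, was at 0.28 (adjusted p = 0.3).

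Of 7 pentose phosphate genes, which divert glucose to NADPH and ribose, G6pdx (log2 fold change 0.35, adjusted p = 0.015), Tkt (0.33, adjusted p = 0.016) and Taldo1 (0.40, adjusted p = 0.016) were called higher with Th9, and none lower. Of 16 tricarboxylic acid cycle genes 3 were called higher (18.8%, near the 13.4% of all genes) and none lower, namely Cs, the citrate synthase (0.39, adjusted p = 0.01), Suclg2 (0.38, adjusted p = 0.01) and Idh3g (0.30, adjusted p = 0.038). Of 11 genes of the pyruvate dehydrogenase complex and its regulators 2 were called higher (18.2%, also near that share): Dlat (0.38, adjusted p = 0.0084) and Dld (0.40, adjusted p = 0.015). The medians of these lists were 0.29, 0.10 and 0.08. T cell markers were higher in these libraries too, as given above.

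The comparison of Th17 with Th0 addresses the same question for Th17 contact. Few members were called: Tpi1 and Gapdh of glycolysis and Egln3 and P4ha1 of the hypoxia response rose 1.34-fold to 1.44-fold, and limma-trend called no member lower (4 at an unadjusted p under 0.05). These are 4 of 39 members called higher (10.3%). Of the 14342 genes tested 1.19% were called higher and 0.39% lower (1.58% in all). With a minimum mean of 50, 1.94% of genes tested were called higher and 0.62% lower, with 4 members higher and 1 lower. At an unadjusted p under 0.05, 2623 genes passed over the whole table; 170 were called higher and 56 lower, or 119 higher and 20 lower with the same total per library. Leaving out Th0 replicate 1 gave 974 higher and 1378 lower, and leaving out Th0 replicate 3 gave 54 and 8. The counts were 15 and 4 without Th17 replicate 1, 42 and 6 without Th17 replicate 2, and 14 and 2 without Th17 replicate 3, so the background share rests on which libraries are used. The median log2 fold change was 0.01 over the 19 glycolysis genes and 0.03 over the 20 hypoxia response genes, against -0.0046 over all genes tested. The Th17 libraries lay wholly above the Th0 libraries for 6 members and wholly below for 4, where 12.8% and 10.6% of all genes tested did so.

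Tpi1 had 4114, 3624 and 4053 normalized counts in the Th17 libraries, against 2703, 2894 and 2586 in the Th0 libraries (log2 fold change 0.53, SE 0.083, adjusted p = 0.012). Gapdh had 3722, 3444 and 3867 in the Th17 libraries, against 2698, 2897 and 2656 in the Th0 libraries (0.42, SE 0.079, adjusted p = 0.027). Egln3 had 1989, 1722 and 1850 in the Th17 libraries, against 1310, 1437 and 1204 in the Th0 libraries (0.49, SE 0.088, adjusted p = 0.021). P4ha1, the main catalytic subunit for collagen prolyl hydroxylation, had 2479, 2472 and 2720 in the Th17 libraries, against 1766, 2058 and 1878 in the Th0 libraries (0.43, SE 0.082, adjusted p = 0.03). Tpi1 (ENSMUSG00000023456) lies on chromosome 6, positions 124810586 to 124814296, and Egln3 (ENSMUSG00000035105) on chromosome 12, positions 54178981 to 54203860, both on the minus strand. P4ha1 (ENSMUSG00000019916) lies on chromosome 10, positions 59323296 to 59373304, plus strand. In all of these genes the lowest Th17 library lay above the highest Th0 library. None of these calls held in every fit with a library left out: without Th0 replicate 3, Th17 replicate 1 or Th17 replicate 3 no member was called, and without Th17 replicate 2 only Tpi1 was, while the direction held in each (adjusted p up to 0.118 for Tpi1, 0.21 for Gapdh, 0.158 for Egln3 and 0.214 for P4ha1). Scaling every library to the same total left none of the 4 called (adjusted p = 0.051 to 0.133), with log2 fold changes of 0.55 for Tpi1, 0.44 for Gapdh, 0.52 for Egln3 and 0.45 for P4ha1, no smaller than those above.

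Ero1l, Vegfa, Hif1a and Hk2, which were called higher with Th9, were not called with Th17. Ero1l had 784, 797 and 831 normalized counts in the Th17 libraries, against 718, 910 and 726 in the Th0 libraries (log2 fold change 0.04, SE 0.098, adjusted p = 0.86). Vegfa had 1970, 1883 and 1942 in the Th17 libraries, against 2032, 1831 and 1878 in the Th0 libraries (0.01, SE 0.073, adjusted p = 0.94). Hif1a had 4248, 4273 and 4476 in the Th17 libraries, against 3553, 4788 and 4044 in the Th0 libraries (0.08, SE 0.11, adjusted p = 0.74). Hk2 had 1796, 1804 and 1814 in the Th17 libraries, against 1905, 2165 and 2106 in the Th0 libraries, below all of them (-0.19, SE 0.075, adjusted p = 0.22). Slc2a1 likewise lay below, at 690, 674 and 729 in the Th17 libraries, against 750, 794 and 834 in the Th0 libraries (-0.18, SE 0.077, adjusted p = 0.24). No T cell marker was called higher in the Th17 libraries. Whether Th9 and Th17 differed in these genes was not tested.

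Bnip3 had 191, 150 and 175 normalized counts in the Th17 libraries, against 226, 285 and 251 in the Th0 libraries (log2 fold change -0.56, SE 0.13, adjusted p = 0.059). The groups did not overlap, and the value was past the threshold without Th0 replicate 1, with array weights, with a minimum mean of 50 and with the same total without 3 RNA genes. Of the lower enzymes Pgk1 had 844, 820 and 878 in the Th17 libraries, against 647, 804 and 656 in the Th0 libraries (0.28, SE 0.094, adjusted p = 0.16). Eno1 was at 0.27 (adjusted p = 0.18) with all Th17 libraries above all Th0 libraries, and Ldha, at 6396, 5767 and 6684 in the Th17 libraries, against 5025, 6324 and 5791 in the Th0 libraries, overlapped (0.14, adjusted p = 0.52). No upper glycolysis gene from hexokinase to aldolase (7 genes) was called, with log2 fold changes from -0.19 to 0.02. Without Th0 replicate 1, 9 members were called lower with Th17, the 7 glycolysis genes Slc2a1, Hk1, Hk2, Pfkl, Pfkfb3, Aldoa and Pgam1 and the hypoxia genes Bnip3 and Ddit4, while the same fit called 4 higher. That fit called 9.7% of all genes tested lower and 6.85% higher, against 0.39% and 1.19% with all libraries.

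The other 20 members overlapped between the Th17 and Th0 libraries or, for Kdm3a, lay just below, with none called. Their log2 fold changes ran from -0.33 (Pfkfb3) to 0.28 (Adm), and that of Ankrd37 (-0.31) had the widest error, an SE of 0.38. Of the neighbouring lists, Pgm1 (0.46, adjusted p = 0.036) was the only gene called among 23 other HIF targets tested. limma-trend called none of 10 HIF pathway components (1 lower at an unadjusted p under 0.05), 16 tricarboxylic acid cycle genes (2 higher), 11 genes of the pyruvate dehydrogenase complex (3 higher) or 7 pentose phosphate genes (0).

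**Figure D3:**
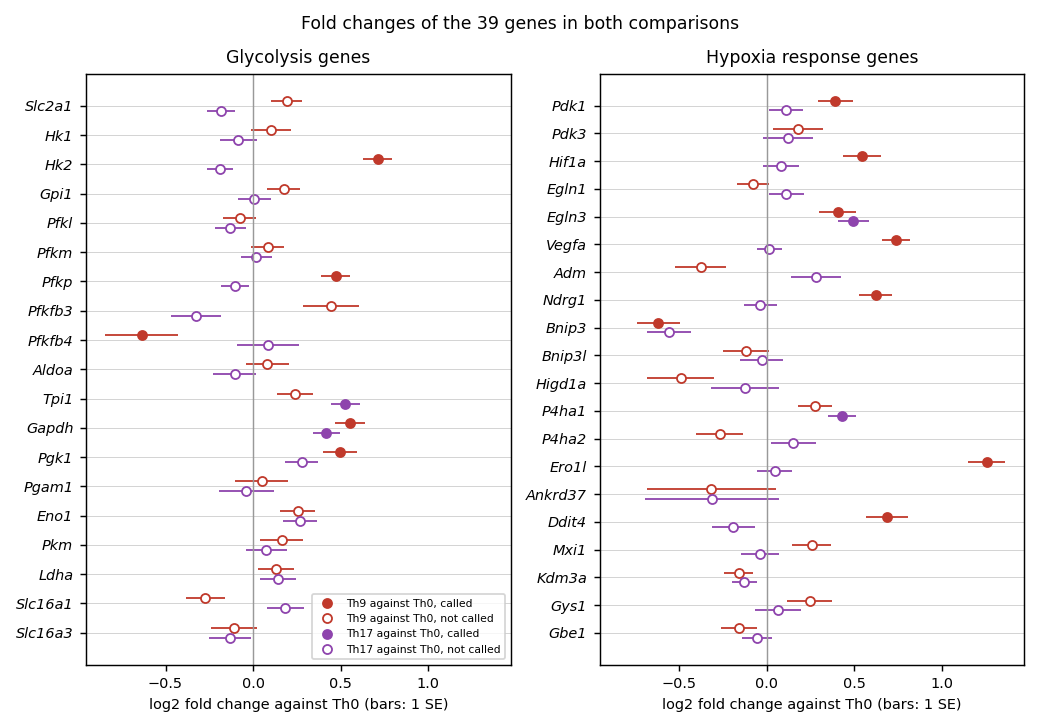
log2 fold change of each of the 39 genes against Th0 for Th9 (upper point of each row) and Th17 (lower point), with bars of 1 SE; filled points are called. Both comparisons share the Th0 libraries, so their points are not independent. Gapdh and Egln3 are called in both, and Ero1l is the farthest point from 0, at 1.26 with Th9.

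Set beside each other, Gapdh and Egln3 were called higher against Th0 in both comparisons, which share the Th0 libraries. Gapdh, often used as a reference gene, was 1.47-fold higher with Th9 and 1.34-fold higher with Th17. Removing Th0 replicate 1 left 13 members called higher and 5 lower with Th9, where 18.1% of all genes tested in that fit were called higher and 19.1% lower.

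**Figure D4:**
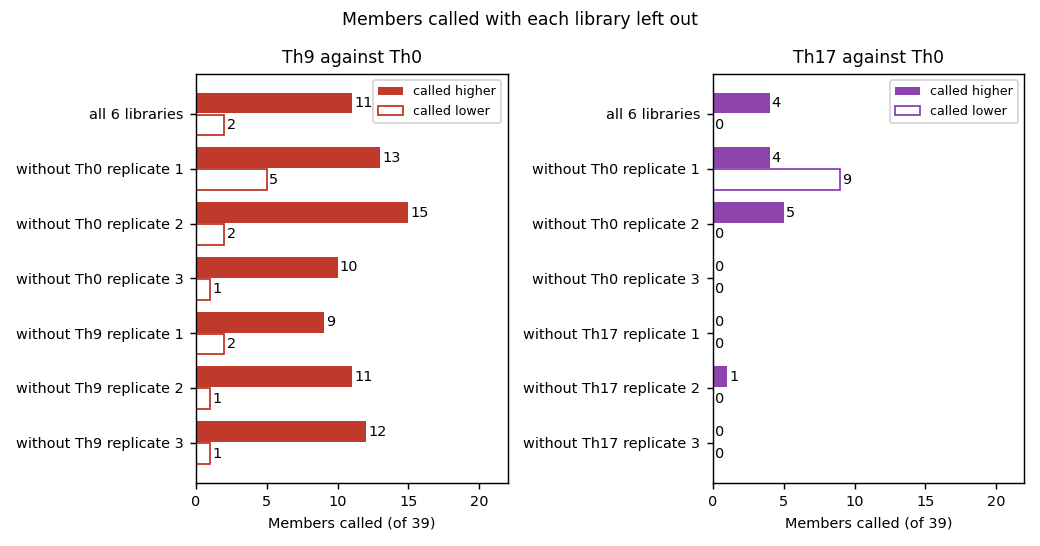
Number of the 39 members called higher (filled bars) and lower (open bars) with all 6 libraries and with each library left out, for Th9 (left) and Th17 (right). With Th9 the count called higher stays between 9 and 15, and with Th17 it is 0 without Th0 replicate 3, Th17 replicate 1 or Th17 replicate 3.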

How the data were processed

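LLC1 libraries of 3 groups (9 samples) were grouped by their titles. Tools named per the submitters' processing notes were STAR 2.4.0a, featureCounts 1.4.5-p1 (Subread) and DESeq2 1.62, and builds mm10 and GRCm38, all without a role. The authors deposited whole-number scores: rounded read counts per gene after division by a library's size factor, in 2 tables normalized separately. As values of Th0 libraries in both tables differed by 1 factor each (1.02846, 1.02165 and 1.02621; among 18022 shared genes, 3, 5 and 6 missed it by over 1), size factors were read from the regular steps of whole numbers, and approximate depth is value times factor. Replicates of a group differed by a chi-square per degree of freedom of 2.30 to 95.5, more than counting noise alone gives, which does not tell if they were separate cultures. Unused columns of sample values numbered 0.

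limma-trend (limma 3.58.1, R 4.3.3) was fitted to log2(value + 1) of genes with a mean of at least 10. It had no term but group, with Benjamini-Hochberg adjustment over the table. The fit was also run on simulated counts with the same dispersion for every gene and no outlying library. That run does not show how the fit performs on libraries that differ as these do. A count test was not used, as rounded values are not counts. Exon lengths are unions of GENCODE M21 exons (GRCm38), and coordinates are those of the tables. Strand use in counting is not stated, and 20 members overlap another annotated gene. Members, gene lists and alternatives were chosen with earlier results of these data known. Library values are given for called members and for Slc2a1, Hk2, Gapdh, Pgk1, Ldha, Hif1a, Egln3, Vegfa and Bnip3, and for up to 4 called genes of other lists, of which 1 is not reported here; other values were chosen after they were seen. Alternatives were pseudocount, filter, scaling, array weights, replicate block and leaving out each library.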

Additional observations from a re-analysis of the deposited data

Results flagged for a closer look

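Hk2 and Slc2a1 stood on opposite sides of the Th0 libraries in the 2 comparisons: every Th9 library lay above and every Th17 library below. The log2 fold changes of Hk2 were 0.71 with Th9 and -0.19 with Th17, and those of Slc2a1 were 0.19 with Th9 and -0.18 with Th17. The difference itself was not tested, as the tables were normalized separately, and only the Hk2 rise with Th9 was called. Both comparisons use the same Th0 libraries, and T cell markers were higher in the Th9 libraries, with none called higher in the Th17 libraries. The part of T cell RNA in these values was not tested.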

How the results depend on the processing

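With Th9, 10 of the 13 called members stayed called under every alternative and all 13 kept their direction; Pfkfb4, Pdk1 and Egln3 lost the call under some. With Th17 none of the 4 called members stayed called under every alternative, and all 4 kept their direction. Of the 26 members not called with Th9, 12 were called under some alternative, and of the 35 with Th17, 11 were. With Th9, P4ha1 was called under 6 of 15 alternatives and Pfkfb3 under 5. Pseudocounts of 0.5 and 5, no filter and TMM factors left the counts of called members as reported, as did a minimum mean of 50 apart from 1 hypoxia gene (Bnip3) called lower with Th17. With the same total per library, Th9 had 5 glycolysis genes higher and 0 lower, and Th17 had 0 higher in both sets; this scaling moved the median of all genes by 0.107 on the log2 scale with Th9, and relative to that median Ero1l was at 1.27. Without 3 RNA genes in the total, Th9 had 7 glycolysis genes higher and 0 lower, and Th17 had 1 hypoxia gene lower. Array weights gave Th9 8 glycolysis genes higher and 2 lower, with 10 hypoxia genes higher and 3 lower, and gave Th17 4 and 6 glycolysis genes and 2 and 2 hypoxia genes. Over the whole table array weights called 3302 genes higher and 3326 lower with Th9 and 1572 and 1789 with Th17, and the total without 3 RNA genes 345 and 102 with Th17. The causes were not tested.

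The labels do not tell if replicate numbers pair the samples. With Th9, same-numbered deviations correlated at 0.111, -0.011 and 0.145, and differently numbered ones at -0.135 to 0.0399. With Th17, same-numbered ones correlated at -0.0547, -0.0795 and 0.039, and differently numbered ones at -0.0466 to 0.0942. These few values do not settle whether samples were paired. A replicate block gave 5 glycolysis genes higher and 2 lower and 8 hypoxia genes higher and 3 lower with Th9, and the reported counts with Th17.

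With 1 library left out, Th9 had 4 to 5 glycolysis genes higher, 0 to 2 lower, and 5 to 10 hypoxia genes higher, 1 to 3 lower. Th17 had 0 to 3 glycolysis genes higher, 0 to 7 lower, 0 to 2 hypoxia genes higher and 0 to 2 lower. Over the whole table the left-out counts ran from 1015 to 2594 higher and 838 to 2742 lower with Th9, and from 14 to 974 higher and 2 to 1378 lower with Th17.

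Signs turned only in members that were not called. With Th9 this held for Pfkl (0.031) and Egln1 (0.027) at the same total, and for Hk1 (-0.039), Pfkm (-0.020), Aldoa (-0.079), Pgam1 (-0.15) and Ankrd37 (0.030) with array weights. With 1 library left out, the Th9 log2 fold changes ran from -0.030 to 0.18 for Hk1, -0.079 to 0.19 for Aldoa, -0.17 to 0.16 for Pgam1, -0.27 to 0.0070 for Bnip3l and -0.65 to 0.013 for Ankrd37. With Th17, array weights turned Pfkm (-0.075), Pfkfb4 (-0.0050) and Ankrd37 (0.10). Left-out ranges with Th17 were -0.048 to 0.087 for Gpi1, -0.051 to 0.094 for Pfkm, -0.020 to 0.14 for Pkm, -0.040 to 0.25 for Pdk3, -0.023 to 0.19 for Hif1a, -0.016 to 0.15 for Ero1l and -0.067 to 0.20 for Pfkfb4. They were -0.25 to 0.070 for Pgam1, -0.016 to 0.059 for Vegfa, -0.11 to 0.0096 for Ndrg1, -0.18 to 0.093 for Bnip3l, -0.66 to 0.020 for Ankrd37, -0.16 to 0.076 for Mxi1, -0.093 to 0.0055 for Gbe1, -0.053 to 0.24 for Gys1 and -0.32 to 0.030 for Higd1a. Low values limit Ankrd37, Higd1a and Pfkfb4, whose SE was 0.18 to 0.38 over both comparisons.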
